A study of Mus musculus with 24 samples.

Results

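The 9 genes described here, Slc6a13, Aldh1a2, Dcn, Lum, Ogn, Igf2, Ptgds, Fmod and Islr, are known to be strongly expressed by the fibroblasts of the meninges. They were chosen by name from a table of 54532 mouse genes, and all 9 were detected in each of the 24 brains. The tissue was brain hemisphere of young adult male WT C57Bl6 mice, sequenced as poly-A RNA, and whether the meninges stayed on the hemispheres is not given in the sources used here. Vehicle mice (n = 6) received saline by osmotic minipump for 2 weeks and angiotensin II mice (n = 6) received angiotensin II at 0.7 mg/kg/d for 2 weeks, a model of hypertension. Vehicle + AEC (n = 6) and angiotensin II + AEC mice (n = 6) had the same infusions and were also injected with human amnion epithelial cells (AEC), epithelial cells isolated from term placenta. The mice of the other groups were injected with saline. The angiotensin II comparison asked what the infusion did to brain transcripts, and the comparisons with AEC asked what the cells did with and without hypertension.

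The meninges are the membranes that wrap the brain, and their fibroblasts lie in the pia, the arachnoid and the dura. These fibroblasts lay down a collagen-rich matrix, make retinoic acid for the developing cortex beneath them and carry transporters that exchange solutes between cerebrospinal fluid, blood and brain. Their transcripts reach a bulk brain library together with those of neurons, glia and vessels, so that fewer fibroblasts and less RNA per fibroblast cannot be told apart in these data.

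Slc6a13 encodes GAT2, a transporter of GABA and taurine, and lies at chr6:121300227-121337733 on the plus strand of GRCm38. Aldh1a2 encodes the retinaldehyde dehydrogenase that makes retinoic acid and lies at chr9:71215789-71296243 (plus strand). Decorin (Dcn, chr10:97479609-97518143), lumican (Lum, chr10:97565128-97572703), osteoglycin (Ogn, chr13:49608046-49624501) and fibromodulin (Fmod, chr1:134037254-134048277), all on the plus strand, are small leucine-rich proteoglycans, secreted proteins that bind collagen fibrils. Islr (chr9:58156268-58204306, minus strand) encodes a protein with leucine-rich repeats and an immunoglobulin domain that marks mesenchymal cells. Igf2 (chr7:142650766-142666816, minus strand) encodes insulin-like growth factor II, and Ptgds (chr2:25466709-25470046, minus strand) encodes lipocalin-type prostaglandin D synthase. Ptgds is also well expressed in choroid plexus and oligodendrocytes, so that its level in a hemisphere is not that of fibroblasts alone. The values cover the whole annotated gene. In GENCODE M21, exons of Islr overlap those of Islr2 on the same strand, which had a mean of 11.6 FPKM, and exons of Igf2 overlap those of Gm49394 on the same strand and of Igf2os on the opposite strand. Since the use of strand in the counting is not given, the reads of Islr and Igf2 are uncertain to that extent. No exon of another gene overlapped those of the other 7 genes.

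The deposited values are FPKM (fragment counts scaled to the length of the gene and the size of the library), and the reads behind each value could be recovered from the FPKM and the gene length in every mouse. Each brain had between 16536449 and 25308700 reads in genes. The 24 libraries fell into 2 sets, and each set held mice of all 4 groups, though in unequal numbers. In 6 libraries the FPKM of all genes summed to between 338334 and 348597, and in the other 18 to between 277116 and 298301. The 6 libraries also had more reads in genes of the mitochondrial genome, 6.17% to 6.85% against 4.79% to 5.75%. Of the 6, 1 came from angiotensin II (replicate 5), 1 from vehicle + AEC (replicate 6), 2 from angiotensin II + AEC (replicates 5 and 6) and 2 from vehicle (replicates 5 and 6). A difference between the sets therefore also enters the comparisons of treatments. It enters the interaction most, since vehicle and angiotensin II + AEC held 2 of these libraries each. The labels give no batch, date or RNA quality that could name these sets. Several of the 9 genes differed more between the sets than between the treatments. Each comparison of the 9 genes is therefore given with all mice and with the 18 libraries of lower total FPKM. Other genes are compared between treatments with all mice only.

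The promoters of 5 of the genes are shown, the 4 whose level separated the library sets without overlap (Slc6a13, Fmod, Islr and Ptgds) and Ogn, which did not separate them. Each is the 250 bases before and 50 bases after a transcription start of RefSeq (GRCm38.p6), printed 5′ to 3′ on the gene's own strand. Capitals mark matches on either strand to the TATA box TATAAA, the GC box GGGCGG or the nuclear receptor half-site AGGTCA.
Slc6a13, chr6:121300038-121300337, plus strand: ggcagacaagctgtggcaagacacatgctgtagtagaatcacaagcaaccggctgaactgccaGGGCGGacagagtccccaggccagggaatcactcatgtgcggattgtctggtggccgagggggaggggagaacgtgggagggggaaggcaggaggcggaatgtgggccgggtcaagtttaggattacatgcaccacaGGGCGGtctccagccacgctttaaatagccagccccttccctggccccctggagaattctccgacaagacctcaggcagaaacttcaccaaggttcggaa
Fmod, chr1:134037004-134037303, plus strand: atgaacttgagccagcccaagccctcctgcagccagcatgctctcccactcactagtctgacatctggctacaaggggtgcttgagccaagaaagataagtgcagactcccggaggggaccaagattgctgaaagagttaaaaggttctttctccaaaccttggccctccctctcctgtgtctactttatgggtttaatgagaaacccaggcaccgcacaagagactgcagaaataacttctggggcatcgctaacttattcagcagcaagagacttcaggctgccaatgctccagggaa
Islr, chr9:58158505-58158804, minus strand: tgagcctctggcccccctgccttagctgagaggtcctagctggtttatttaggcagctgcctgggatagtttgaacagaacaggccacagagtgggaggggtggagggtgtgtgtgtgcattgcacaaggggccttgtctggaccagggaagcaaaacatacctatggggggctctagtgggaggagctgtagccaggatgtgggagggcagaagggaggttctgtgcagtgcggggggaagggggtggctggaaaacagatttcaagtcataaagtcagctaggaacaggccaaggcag
Ptgds, chr2:25469700-25469999, minus strand: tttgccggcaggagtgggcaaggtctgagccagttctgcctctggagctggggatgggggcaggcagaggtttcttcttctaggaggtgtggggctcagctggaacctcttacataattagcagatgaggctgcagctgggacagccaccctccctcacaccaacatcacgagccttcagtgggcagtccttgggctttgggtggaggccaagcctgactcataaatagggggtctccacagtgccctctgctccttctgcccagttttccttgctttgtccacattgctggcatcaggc
Ogn, chr13:49607765-49608064, plus strand: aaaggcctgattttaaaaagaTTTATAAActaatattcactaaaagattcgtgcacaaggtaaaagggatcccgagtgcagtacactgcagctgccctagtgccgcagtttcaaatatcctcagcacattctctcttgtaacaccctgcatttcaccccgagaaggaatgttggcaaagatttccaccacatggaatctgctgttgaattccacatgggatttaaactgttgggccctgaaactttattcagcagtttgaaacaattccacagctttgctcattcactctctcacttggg
The promoter of Slc6a13 held 2 GC boxes, a motif found in 35.7% of the 32851 promoters of the table. The promoter of Ogn held an overlapping pair of TATA matches, one on each strand, and 13.6% of all promoters held at least 1. None of the 3 motifs was found in the windows of Fmod, Islr and Ptgds, and 16.3% of all promoters held the half-site. The GC content of these windows was 59.0% for Slc6a13, 51.0% for Fmod, 57.0% for Islr, 57.7% for Ptgds and 42.3% for Ogn, against a median of 52.7% over all promoters. Aldh1a2 and Igf2 also have a window in the table, and for Slc6a13 the first of 3 starts is shown.

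Ptgds was by far the most abundant of the 9 transcripts, with a mean of 771 ± 193 FPKM (SD, n = 24), higher than 99.9% of the genes tested. Fmod followed at 9.19 ± 2.48, Islr at 7.48 ± 2.39, Slc6a13 at 6.28 ± 1.62 and Aldh1a2 at 5.95 ± 1.12 FPKM. Lower still were Dcn at 3.59 ± 0.492, Ogn at 2.96 ± 0.490, Lum at 0.983 ± 0.185 and Igf2 at 0.310 ± 0.0704 FPKM. Since FPKM is per length, these levels allow a rough comparison between genes. FPKM does not correct for GC content or for exons shared with another gene, as in Islr. The order held within nearly every mouse for most neighbours, Fmod exceeding Islr in 23 of 24 mice, Islr exceeding Slc6a13 in 20 and Dcn exceeding Ogn in 22. Slc6a13 and Aldh1a2 could not be ordered, since Slc6a13 was the higher in 13 of 24 mice. Reads per mouse ranged from 21 to 51 for Igf2 and from 32 to 86 for Lum, for which counting error alone (the square root of the count) was 14.0% to 21.8% and 10.8% to 17.7% of the value. For Ptgds, with 17474 to 40508 reads, it was below 0.757%, and for the other 6 genes between 3.003% and 9.90%.

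**Figure D1:**
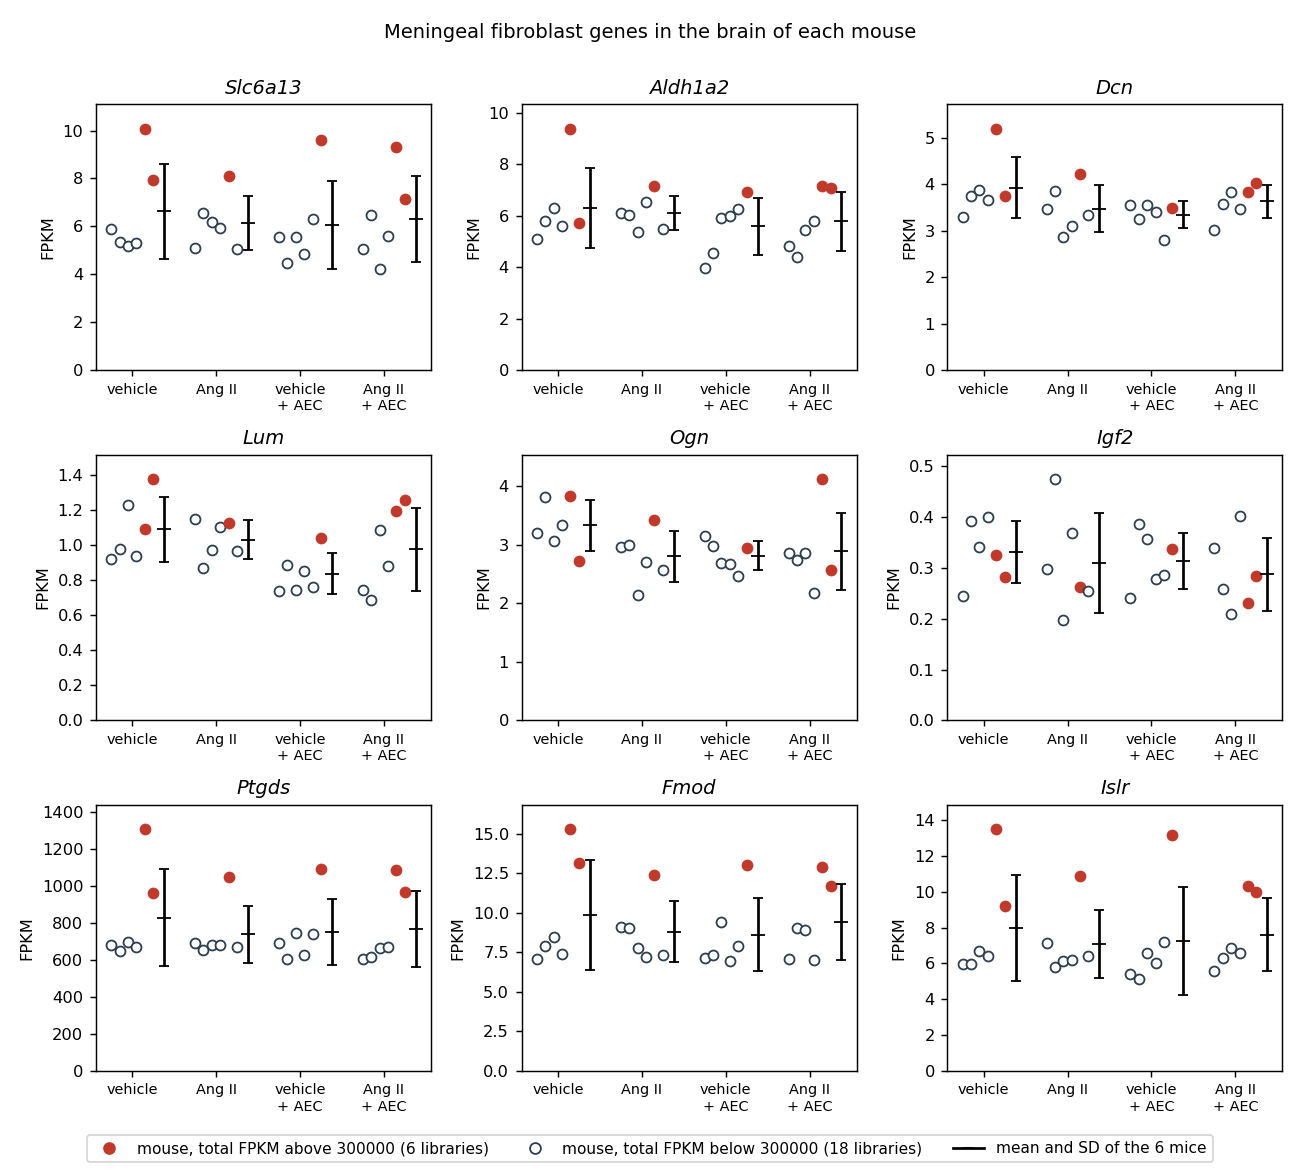
FPKM (linear axis from 0) of the 9 genes in each of the 24 mice, by group; filled points are the 6 libraries of total FPKM above 300000, open points the other 18, and bars the mean and SD of the 6 mice of a group. The filled points of Slc6a13, Ptgds, Fmod and Islr lie above all open points in every group, whereas the 4 groups overlap for each gene.

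No gene of the 9 passed the test in any comparison, and since each mouse gave 1 library the p-values measure the spread between mice. With limma on log2(FPKM + 0.1) and Benjamini-Hochberg adjustment over the 27286 genes tested, 0 of the 9 genes had an adjusted p under 0.05 for angiotensin II versus vehicle, angiotensin II + AEC versus angiotensin II, vehicle + AEC versus vehicle or the interaction, as did 0.0% of all genes in each. Their lowest adjusted p was 0.994, 1, 0.995 and 0.931, respectively. At an unadjusted p under 0.05 the counts were 0, 0, 1 and 0 of 9, against 2.21%, 2.54%, 2.41% and 2.54% of all genes. With limma voom on the recovered reads the adjusted counts were also 0, and 2 genes, Lum and Dcn, had an unadjusted p under 0.05 in vehicle + AEC versus vehicle, against 2.33% of all genes. The clearest pattern was a lower level of Lum, Dcn and Ogn in vehicle + AEC than in vehicle mice, which did not survive the adjustment.

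Lumican regulates the spacing of collagen fibrils. Lum ranged from 0.923 to 1.38 FPKM in vehicle mice (median 1.04) and from 0.740 to 1.04 FPKM in vehicle + AEC mice (median 0.808). All 6 vehicle + AEC mice lay below the vehicle mean, although the 2 groups overlapped. The log2 fold change was -0.34 (SE 0.143, 95% confidence interval -0.63 to -0.04), a ratio of 0.791, with an unadjusted p = 0.0269 and an adjusted p = 0.995. The exact two-sided permutation test gave p = 0.0173, where the smallest p that 6 against 6 allows is 0.00216. In angiotensin II mice Lum ranged from 0.870 to 1.15 FPKM (median 1.04) and in angiotensin II + AEC mice from 0.686 to 1.26 FPKM (median 0.983). Those values overlapped with each other and with vehicle. The log2 fold change was -0.07 (95% confidence interval -0.36 to 0.23) for angiotensin II versus vehicle and -0.10 (95% confidence interval -0.39 to 0.20) for angiotensin II + AEC versus angiotensin II.

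Decorin binds collagen and growth factors of the TGF-β family. Dcn ranged from 3.30 to 5.19 FPKM in vehicle mice (median 3.74) and from 2.79 to 3.55 FPKM in vehicle + AEC mice (median 3.44). Again, all 6 vehicle + AEC mice lay below the vehicle mean. The log2 fold change was -0.21 (SE 0.104), with an unadjusted p = 0.05002 that did not fall under the threshold, an adjusted p = 0.995 and p = 0.0346 by exact permutation. Dcn ranged from 2.86 to 4.23 FPKM in angiotensin II mice (median 3.40) and from 3.02 to 4.03 FPKM in angiotensin II + AEC mice (median 3.70). The 4 groups overlapped, and the log2 fold change was -0.17 (95% confidence interval -0.38 to 0.05) for angiotensin II versus vehicle and 0.07 (95% confidence interval -0.15 to 0.28) for angiotensin II + AEC versus angiotensin II.

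Osteoglycin, also called mimecan, is a further proteoglycan of this family that takes part in collagen fibril formation. Ogn ranged from 2.72 to 3.83 FPKM in vehicle mice (median 3.27), from 2.14 to 3.43 in angiotensin II mice (median 2.84), from 2.46 to 3.15 in vehicle + AEC mice (median 2.82) and from 2.17 to 4.12 in angiotensin II + AEC mice (median 2.80). Vehicle had the highest median, and the medians of the other 3 groups lay between 2.80 and 2.84 FPKM. In vehicle + AEC mice all 6 values lay below the vehicle mean, with a log2 fold change of -0.23 (SE 0.125, unadjusted p = 0.0800, adjusted p = 0.995) and p = 0.0346 by exact permutation. In angiotensin II mice 5 of 6 values lay below it, with a log2 fold change of -0.25 (SE 0.125, unadjusted p = 0.0616, adjusted p = 0.994) and p = 0.0606 by exact permutation. These 2 comparisons share the vehicle mice. Adding AEC to angiotensin II gave a log2 fold change of 0.03 (95% confidence interval -0.23 to 0.29).

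Fibromodulin, the fourth proteoglycan, shares a collagen binding site with lumican. Fmod ranged from 7.06 to 15.3 FPKM in vehicle (median 8.18), from 7.22 to 12.4 in angiotensin II (median 8.43), from 6.97 to 13.0 in vehicle + AEC (median 7.62) and from 7.03 to 12.9 in angiotensin II + AEC mice (median 8.96). The groups overlapped almost completely. Fmod had a log2 fold change of -0.12 (95% confidence interval -0.54 to 0.30) for angiotensin II versus vehicle, -0.16 (95% confidence interval -0.58 to 0.26) for vehicle + AEC versus vehicle and 0.08 (95% confidence interval -0.34 to 0.50) for angiotensin II + AEC versus angiotensin II.

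Slc6a13 ranged from 5.17 to 10.1 FPKM in vehicle (median 5.61), from 5.05 to 8.08 in angiotensin II (median 6.06), from 4.45 to 9.60 in vehicle + AEC (median 5.55) and from 4.22 to 9.31 in angiotensin II + AEC mice (median 6.05). The highest value of each group belonged to a library of high total FPKM. Slc6a13 had a log2 fold change of -0.08 (95% confidence interval -0.49 to 0.33) for angiotensin II versus vehicle, -0.13 (95% confidence interval -0.54 to 0.28) for vehicle + AEC versus vehicle and 0.0072 (95% confidence interval -0.40 to 0.42) for angiotensin II + AEC versus angiotensin II.

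Aldh1a2 ranged from 5.11 to 9.38 FPKM in vehicle (median 5.74), from 5.36 to 7.14 in angiotensin II (median 6.08), from 3.98 to 6.90 in vehicle + AEC (median 5.95) and from 4.41 to 7.16 in angiotensin II + AEC mice (median 5.61). The 2 groups given AEC held the 4 lowest values of the 24, but their medians differed from those of the other groups by less than the SD within groups. Aldh1a2 had a log2 fold change of -0.02 (95% confidence interval -0.33 to 0.28) for angiotensin II versus vehicle, -0.17 (95% confidence interval -0.47 to 0.14) for vehicle + AEC versus vehicle and -0.10 (95% confidence interval -0.40 to 0.21) for angiotensin II + AEC versus angiotensin II.

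Ptgds, whose product makes prostaglandin D2 and also circulates in cerebrospinal fluid as β-trace protein, ranged from 646 to 1306 FPKM in vehicle mice (median 688). The range was 652 to 1051 FPKM in angiotensin II (median 680), 607 to 1091 in vehicle + AEC (median 716) and 604 to 1085 in angiotensin II + AEC mice (median 667). The medians of the 4 groups differed by less than the SD of any group, which was 154 to 262 FPKM. Ptgds had a log2 fold change of -0.13 (95% confidence interval -0.54 to 0.27) for angiotensin II versus vehicle, -0.12 (95% confidence interval -0.52 to 0.29) for vehicle + AEC versus vehicle and 0.04 (95% confidence interval -0.37 to 0.45) for angiotensin II + AEC versus angiotensin II.

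Islr ranged from 5.99 to 13.5 FPKM in vehicle (median 6.56), from 5.81 to 10.9 in angiotensin II (median 6.31), from 5.12 to 13.2 in vehicle + AEC (median 6.29) and from 5.60 to 10.3 in angiotensin II + AEC mice (median 6.71). Igf2 ranged from 0.244 to 0.400 FPKM in vehicle (median 0.334), from 0.198 to 0.475 in angiotensin II (median 0.280), from 0.240 to 0.386 in vehicle + AEC (median 0.311) and from 0.210 to 0.402 in angiotensin II + AEC mice (median 0.271). The groups overlapped for both genes, and differences within the intervals below are not excluded for either. Igf2 had only 21 to 51 reads per mouse. Between angiotensin II and vehicle the log2 fold change was -0.13 (95% confidence interval -0.61 to 0.34) for Islr and -0.09 (95% confidence interval -0.44 to 0.25) for Igf2. For vehicle + AEC versus vehicle it was -0.15 (95% confidence interval -0.62 to 0.33) for Islr and -0.06 (95% confidence interval -0.40 to 0.29) for Igf2. Angiotensin II + AEC against angiotensin II gave 0.10 (95% confidence interval -0.38 to 0.57) for Islr and -0.07 (95% confidence interval -0.41 to 0.28) for Igf2.

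Of the 27 exact permutation tests (9 genes in 3 comparisons), the 3 of Lum, Dcn and Ogn in vehicle + AEC versus vehicle had p under 0.05. In that comparison 2.02% of all genes had an exact permutation p under 0.05 and 1.11% were also lower, and with limma 1.29% of all genes were lower at an unadjusted p under 0.05. None of the 9 genes had an exact permutation p under 0.05 for angiotensin II versus vehicle (2.11% of all genes) or for angiotensin II + AEC versus angiotensin II (2.13%). The call of Lum at an unadjusted p lay near the threshold. In the 10 alternatives that could fit Lum its unadjusted p was from 0.0131 to 0.0330 (limma), but these reuse the same mice. With 1 mouse left out, Lum had an unadjusted p under 0.05 in 7 of 12 fits. In limma fits with 1 mouse left out, which are not exact tests, it had p = 0.0585 without vehicle replicate 3, p = 0.0750 without vehicle replicate 6, and p = 0.0549, 0.0541 and 0.0506 without vehicle + AEC replicates 1, 3 and 5, with log2 fold changes between -0.27 and -0.40 over the 12 fits without 1 mouse. In the same fits Dcn ranged from -0.13 (p = 0.175, without vehicle replicate 5) to -0.26 and had an unadjusted p under 0.05 in 4 of 12, and Ogn ranged from -0.19 to -0.28 and had one in 1 of 12, which are not exact tests either.

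Each of the 9 genes had a log2 fold change below 0 for angiotensin II versus vehicle, as did 44.6% of all genes, with a median of -0.12 over the 9 genes and 0.02 over all genes tested. All 9 were also below 0 for vehicle + AEC versus vehicle (47.6% of all genes), with a median of -0.16 against 0.0085. Both comparisons use the same vehicle mice, among which replicate 5 had the highest Slc6a13, Aldh1a2, Dcn, Ptgds, Fmod and Islr of the 24 mice. Without that mouse 4 of the 9 genes were below 0 for angiotensin II versus vehicle and 6 of 9 for vehicle + AEC versus vehicle. For angiotensin II + AEC versus angiotensin II 3 of the 9 genes were below 0 (54.7% of all genes), with a median of 0.03 against -0.02. In the interaction, which sets the effect of AEC in angiotensin II mice against that in vehicle mice, 1 of 9 genes was below 0 (54.1% of all genes), with a median of 0.24 against -0.03. Without vehicle replicate 5 the interaction had 2 of 9 genes below 0 and a median of 0.077, and with the library set as a term 4 of 9 and 0.0065. The interaction was largest for Dcn at 0.28 (95% confidence interval -0.02 to 0.58, unadjusted p = 0.0690, adjusted p = 0.931, limma) and for Ogn at 0.26 (95% confidence interval -0.11 to 0.63).

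Within the 18 libraries of lower total FPKM, 4 of the 9 genes were below 0 for angiotensin II versus vehicle (48.6% of all genes), so that the common direction of that comparison was not seen there. For vehicle + AEC versus vehicle 7 of 9 genes stayed below 0 (50.8% of all genes), with a median of -0.11, and with all mice and the library set as a term all 9 did, with a median of -0.072. For angiotensin II + AEC versus angiotensin II 8 of 9 genes were below 0 in the 18 libraries (50.4%). Among them were Lum at -0.24 (95% confidence interval -0.52 to 0.04) and Aldh1a2 at -0.21 (95% confidence interval -0.46 to 0.04), and Dcn was above 0 at 0.06. The interaction of Lum there was 0.07 (95% confidence interval -0.33 to 0.47), so that its lower level was not confined to the vehicle mice. In the interaction 4 of 9 were below 0 (50.1%), with a median of 0.056, and Dcn had 0.20 (95% confidence interval -0.07 to 0.47) and Ogn 0.25 (95% confidence interval -0.07 to 0.57). Lum, Dcn and Ogn stayed below 0 in vehicle + AEC versus vehicle. The log2 fold change was -0.31 for Lum (95% confidence interval -0.59 to -0.03, unadjusted p = 0.0330), -0.26 for Ogn (95% confidence interval -0.48 to -0.03, unadjusted p = 0.0265) and -0.14 for Dcn (95% confidence interval -0.33 to 0.05), where 4.16% of all genes had an unadjusted p under 0.05. For angiotensin II versus vehicle Ogn had a log2 fold change of -0.32 (95% confidence interval -0.55 to -0.10, unadjusted p = 0.00774), where 3.83% of all genes had an unadjusted p under 0.05. The lowest adjusted p of the 9 genes in the 18 libraries was 0.998 (limma). The spread narrowed most for Ptgds, whose interval for angiotensin II versus vehicle shrank from -0.54 to 0.27 with all mice to -0.13 to 0.14, and for Islr, whose interval shrank from -0.61 to 0.34 to -0.17 to 0.20. The 6 libraries of higher total FPKM hold 1 or 2 mice of a group and were too few for a comparison of their own.

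**Figure D2:**
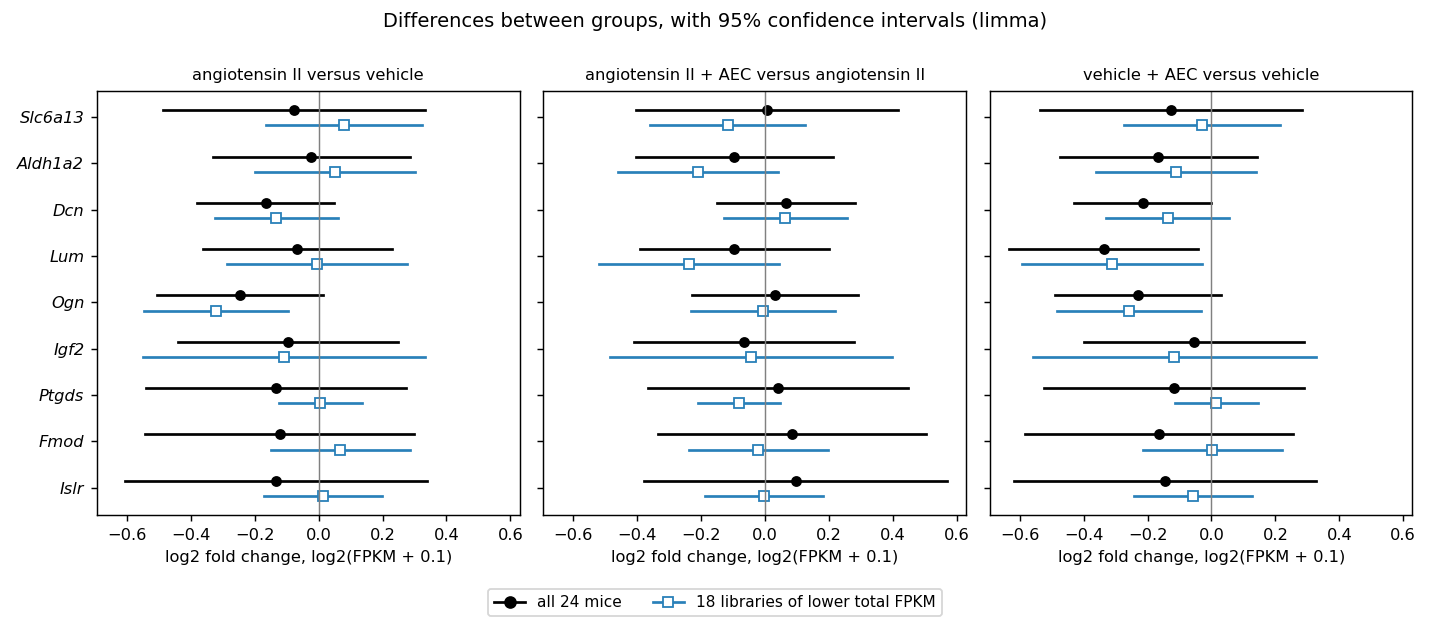
Log2 fold changes of the 9 genes on the log2(FPKM + 0.1) scale with 95% confidence intervals (lines) in 3 comparisons; circles are the fit with all 24 mice and squares the fit with the 18 libraries of lower total FPKM. With all mice every interval includes 0 apart from that of Lum in vehicle + AEC versus vehicle, and in the 18 libraries apart from those of Lum and Ogn there and of Ogn in angiotensin II versus vehicle.

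The largest differences lay between the library sets. Islr ranged from 9.23 to 13.5 FPKM in the 6 libraries of higher total FPKM and from 5.12 to 7.18 FPKM in the other 18, 1.77-fold higher on the log2(FPKM + 0.1) scale. Fmod ranged from 11.7 to 15.3 against 6.97 to 9.39 FPKM, a fold of 1.65. For Ptgds the ranges were 963 to 1306 against 604 to 746 FPKM, a fold of 1.61. Slc6a13 ranged from 7.13 to 10.1 against 4.22 to 6.56 FPKM, a fold of 1.58. For these 4 genes all 6 libraries lay above all 18, as they did for 11.2% of all genes tested (3060 of 27286). The other 5 genes overlapped between the sets, with folds of 1.30 for Aldh1a2, 1.27 for Lum, 1.18 for Dcn, 1.13 for Ogn and 0.936 for Igf2. The sets were formed after the data were seen, from the total FPKM to which Ptgds itself contributes, and these values are given with no test.

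The sets accounted for 89.3% of the variance of log2 Ptgds over the 24 mice, 85.3% of Islr, 83.2% of Fmod and 73.5% of Slc6a13. The share was 42.1% for Aldh1a2, 37.8% for Lum, 33.995% for Dcn, 12.6% for Ogn and 3.003% for Igf2. The 4 treatment groups accounted for between 1.88% (Slc6a13) and 27.4% (Lum), with 20.6% for Ogn and 20.1% for Dcn. The groups held the larger share for Ogn and for Igf2 (5.92%). The 4 groups take up more variance by chance than the 2 sets do, so that the 2 kinds of share are not directly comparable. The median log2 difference between the sets was 0.38 over the 9 genes and -0.07 over all genes tested. For Ptgds, Islr, Fmod and Slc6a13 it was between 0.66 and 0.82. Rescaling each library by its median ratio raised these to between 0.72 and 0.89.

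The 4 genes that separated the sets had between 53.7% and 56.4% GC in their longest transcript, and the other 5 between 36.3% and 55.8%. Across the 13633 genes with a mean of at least 1 FPKM and a known transcript, the difference between the sets had a Spearman rho of 0.45 with this GC content and of -0.52 with the gene length. These correlations are across genes of the same 24 libraries and are given as a description. The median log2 difference was -0.27 in the decile of genes lowest in GC and 0.41 in the decile highest in GC. Islr (56.0% GC), Ptgds (56.4%), Slc6a13 (54.7%) and Fmod (53.7%) fell in deciles whose medians were between 0.08 and 0.33, and their own differences were between 0.66 and 0.82. Ogn (36.3%), Dcn (37.4%) and Lum (41.9%) fell in the 2 lowest deciles, with medians of -0.27 and -0.38, and their own differences were 0.18, 0.24 and 0.34. Igf2 went the other way, with 55.8% GC, a decile median of 0.23 and a difference of -0.10. The part of GC content and of length in these differences was not tested.

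**Figure D3:**
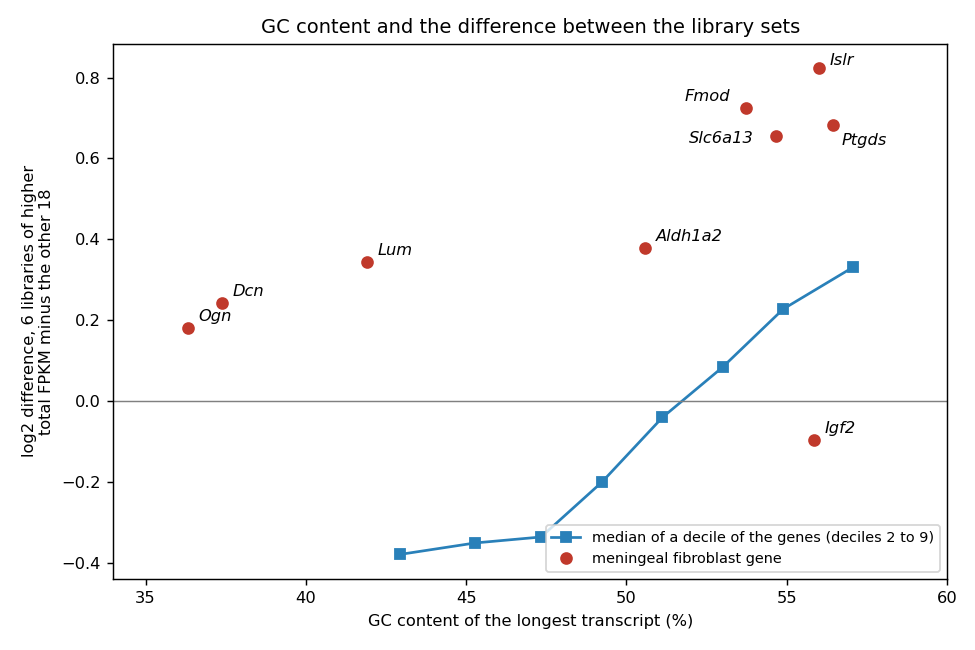
Mean log2(FPKM + 0.1) of the 6 libraries of higher total FPKM minus that of the other 18, against the GC content (%) of the longest GENCODE M21 transcript. Circles are the 9 genes, and squares are the medians of deciles 2 to 9 of the 13633 genes ordered by GC content, placed at the middle of each decile. The line of medians rises from -0.38 in decile 2 to 0.33 in decile 9. Ogn, Dcn and Lum lie to the left of its start, and of the other 6 genes Igf2 lies below it.

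Summed marker levels of several cell types also differed between the sets. Beside the counts of single genes given here, 43.1% of all genes tested were higher in the 6 libraries. The summed FPKM of the 30 other meningeal fibroblast genes ranged from 153 to 188 in the 6 libraries and from 97.4 to 122 in the 18, with 22 of the 30 genes higher in the 6. Igfbp6, which binds insulin-like growth factors, and Mgp, an inhibitor of calcification, were the most abundant of them at 31.9 and 24.2 FPKM, and they were 1.77-fold and 1.62-fold higher in the 6 libraries. The sums of choroid plexus markers (848.5 to 1137 against 363 to 786 FPKM, 5 of 11 genes higher), of pericyte and smooth muscle markers (124 to 140 against 75.2 to 91.9 FPKM, 9 of 10 genes higher) and of endothelial markers (120 to 142 against 82.8 to 108 FPKM, 3 of 8 genes higher) also did not overlap. The sum of the choroid plexus list is nearly all transthyretin (Ttr, 664 FPKM), which was 1.62-fold higher, whereas Clic6, the next gene of that list, was 0.837-fold. Border macrophage markers ranged from 5.03 to 7.91 against 2.60 to 4.64 FPKM, with 4 of 6 genes higher. Erythroid markers (123 to 204 against 32.9 to 189 FPKM) and oligodendrocyte markers (1477 to 1805 against 1228 to 1504.5 FPKM) overlapped. The sum of neuron markers was higher in the 6 libraries (1020 to 1113 against 879 to 950.5 FPKM) with 3 of 6 genes higher, and of its most abundant genes Snap25 was 0.875-fold and Tubb3 1.46-fold. The sum of astrocyte markers was lower at the median (249.7 against 287 FPKM, with 2 of 6 genes higher). No gene of these marker lists was at 0 in all mice. Sums of some lists that are not cell types did not overlap either. They were other small leucine-rich proteoglycans (19.6 to 22.4 against 13.3 to 18.7 FPKM), the retinoic acid pathway (71.6 to 83.1 against 62.0 to 70.9 FPKM) and the insulin-like growth factor system (174 to 205 against 126 to 145 FPKM). Each of these lists shares genes with the other meningeal fibroblast genes, namely Bgn, Crabp2 and Rdh10, and Igfbp6, respectively. How often sums of other lists separate the sets was not computed. The sums of the prostaglandin D2 pathway and of other GABA and taurine transporters overlapped. The part of the cell types and of the mitochondrial share in the differences of the 9 genes was not tested.

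**Figure D4:**
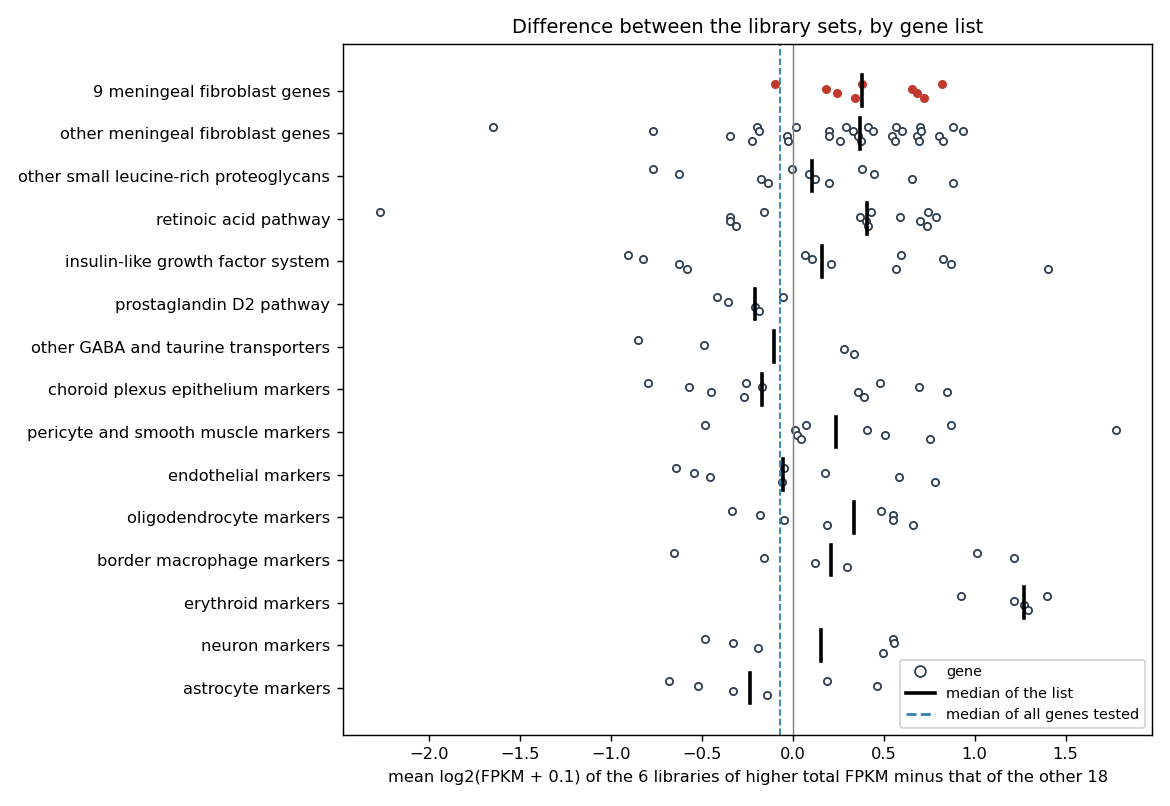
Difference in mean log2(FPKM + 0.1) between the 6 libraries of higher total FPKM and the other 18 for each gene (points) of 15 lists, with the median of each list (black bars) and of all genes tested (dashed line, -0.07). The 9 meningeal fibroblast genes (filled points) lie between -0.10 and 0.82, and the other lists spread to both sides of 0 apart from the erythroid list, which lies above 0, and the prostaglandin D2 list, which lies below 0.

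No gene of the pathways around the 9 genes passed the test by treatment either. In each of the lists named here 0 genes had an adjusted p under 0.05 (limma) in any of the 4 comparisons, as did 0.0% of all genes. For the counts at an unadjusted p under 0.05 given below, the share of all genes was 2.21% for angiotensin II versus vehicle. It was 2.54% for angiotensin II + AEC versus angiotensin II, 2.41% for vehicle + AEC versus vehicle and 2.54% for the interaction. Of the 30 other meningeal fibroblast genes, 0, 0 and 0 passed an unadjusted p under 0.05 in the 3 pairwise comparisons, with medians of -0.02, 0.01 and -0.06. In the interaction 1 passed, the type I collagen chain Col1a1, with a log2 value of 0.78 (SE 0.345, unadjusted p = 0.0345, adjusted p = 0.931, limma). Col1a1 was also 1.92-fold higher in the 6 libraries of higher total FPKM. These are spread unequally over the groups, and the part of the sets in its interaction was not tested. Among the other small leucine-rich proteoglycans (12 of 13 tested) none passed, and Prelp at 7.56 FPKM and biglycan (Bgn) at 3.88 FPKM were the most abundant. Their log2 fold changes for angiotensin II versus vehicle were -0.04 and 0.04, and for vehicle + AEC versus vehicle -0.07 and -0.16. In the latter comparison 5 of the 12 genes were below 0 (47.6% of all genes), with a median of 0.04. That share was near that of all genes, and some of the 12 genes were hardly expressed (Podnl1 at 0.042 and Nyx at 0.14 FPKM). Whether the lower level of Lum, Dcn and Ogn was shared by the other proteoglycans was not tested.

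The 14 genes of the retinoic acid pathway held Aldh1a1, another retinaldehyde dehydrogenase, at 25.8 FPKM and the retinol carrier Rbp4 at 9.27 FPKM. None of the 14 passed an unadjusted p under 0.05, and the log2 fold changes of the 2 genes for angiotensin II versus vehicle were 0.09 and 0.05. None of the 12 genes of the insulin-like growth factor system passed, with Igfbp6 at -0.13 and Igfbp2 (31.2 FPKM) at -0.24 in that comparison (SE 0.226 and 0.228). Among 4 other GABA and taurine transporters, Slc6a11 (GAT3, 71.0 FPKM) had 0.02, and none passed. Of the 5 genes of the prostaglandin D2 pathway around Ptgds, Ptgs1, the cyclooxygenase COX-1 that makes the precursor of prostaglandin D2, had a log2 fold change of -0.34 (SE 0.112, unadjusted p = 0.00554, adjusted p = 1) for angiotensin II + AEC versus angiotensin II and an interaction of -0.33 (unadjusted p = 0.0492, adjusted p = 0.931). Ptgs1 was not among the 9 genes and was named because it passed the unadjusted threshold, as did 2.54% of all genes in each of those comparisons. Between the library sets it was 0.782-fold in the 6 libraries of higher total FPKM. Of the 8 marker lists of other cell types, 1 gene passed an unadjusted p under 0.05. It was Notch3, a receptor of pericytes and smooth muscle, at -0.13 (unadjusted p = 0.0473, adjusted p = 0.995, limma) for vehicle + AEC versus vehicle. In that comparison 2.41% of all genes passed, and Notch3 was 1.02-fold in the 6 libraries of higher total FPKM.

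From mouse to mouse the 9 genes varied together only weakly in the larger library set. In the smaller set r spread widely over few mice, and no pair passed the adjustment in either set. Within the 18 libraries of lower total FPKM, 27 of 36 gene pairs had a Pearson's r above 0, with a median of 0.12 and a range from -0.35 to 0.63. The share above 0 among pairs of other genes was not computed. None of the 36 pairs had an adjusted p under 0.05 (permutation test with 100000 resamples, two-sided, adjusted over the 36 pairs). The strongest pair was Aldh1a2 with Islr at r = 0.634 (p = 0.00482, adjusted p = 0.114) and rho = 0.546 (p = 0.0208, adjusted p = 0.263), and r was 0.660 without the 2 libraries farthest from the median of Aldh1a2. Dcn and Ogn had r = 0.544 (p = 0.0198, adjusted p = 0.179) and rho = 0.538 (p = 0.0219, adjusted p = 0.263), which fell to 0.304 without the 2 farthest libraries. Within the 6 libraries of higher total FPKM, r ranged from -0.91 (Lum with Islr, exact permutation p = 0.00972, adjusted p = 0.238) to 0.89 (Aldh1a2 with Ptgds), with a median of 0.49. No pooled r is given, because the libraries form 2 clusters.

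**Figure D5:**
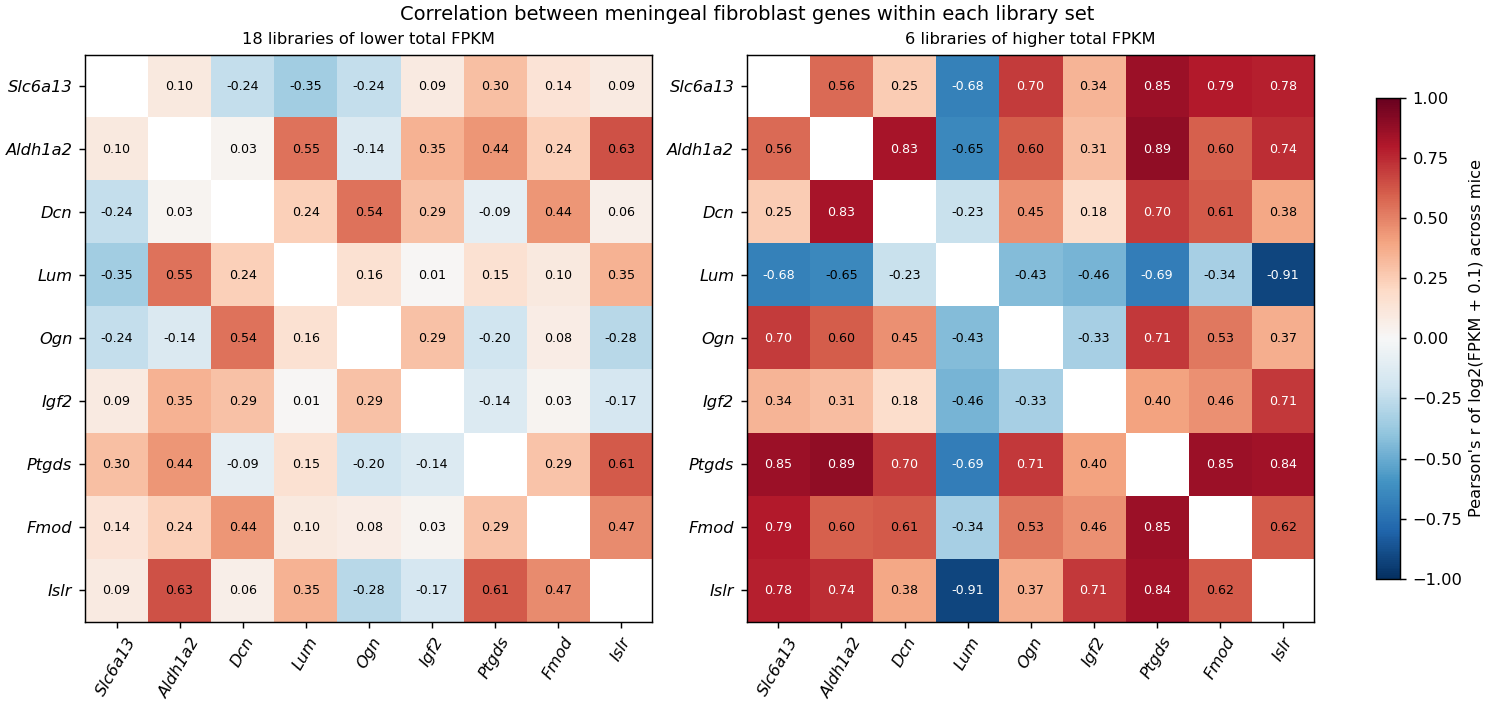
Pearson's r of log2(FPKM + 0.1) between the 9 genes across mice, on a scale from -1 (blue) to 1 (red), within the 18 libraries of lower total FPKM (left) and within the 6 of higher total FPKM (right). On the left all values are between -0.35 and 0.63, and on the right Lum is negative with each of the other 8 genes.

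The genes most like the 9 over the 24 mice were found by the Spearman rho of their FPKM with the mean standardised level of the 9, among 13642 genes with a mean of at least 1 FPKM. They were Aebp1 (rho = 0.875), a collagen-binding protein that was also in the list of other meningeal fibroblast genes, Evl (0.865), an actin regulator, Vwa1 (0.858), a matrix protein, Slc13a3 (0.853), a transporter of dicarboxylates, and Gsta4 (0.849), a glutathione transferase. All 5 had every one of the 6 libraries of higher total FPKM above the other 18, with folds from 1.17 for Evl to 1.65 for Gsta4. Within the 18 libraries their rho was between 0.651 (Slc13a3) and 0.773 (Gsta4). These genes were picked as the highest of many, so that their rho carries no test.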

How the data were processed

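Poly-A RNA of 24 mouse brain hemispheres was sequenced, 1 library per mouse and 6 mice per group. The deposited table holds gene FPKM that the authors computed from their reads, and the processing notes name DESeq 1.10.1 and the builds GRCm38 and mm10. The aligner, the counter and the use of strand are not given in the sources used here. The reads behind each FPKM were recovered from the gene length, with 100% of values whole within 0.05.

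Genes above 0 in at least 6 of 24 mice (27286 of 54532) were tested on log2(FPKM + 0.1) with limma 3.58.1 (R 4.3.3) in 1 fit of the 4 groups, with a mean trend of the variance and Benjamini-Hochberg adjustment over all genes. Fold changes are on that scale, which understates changes of low genes. Single genes were also compared by exact two-sided permutation tests (924 arrangements). The fit was checked on simulated data that held no library sets, so that the check does not bear on them. Correlations were computed within the library sets, which were divided at a total of 300000 FPKM after the data were seen.

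The alternatives were pseudocounts of 1 and 0.01, no filter, a mean of at least 1 FPKM, the compared groups alone, a replicate block, rescaling by the median ratio, voom on the recovered reads, array weights, the library set as a term, the 18 libraries of lower total FPKM, and each mouse left out in turn. The 9 genes and the lists were chosen with earlier results of these data known. Besides the 9 genes, those named are the 2 most abundant of a list, those most like the 9 genes, and those said to have been named for their p. One gene that this rule would name is not reported here.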

Additional observations from a re-analysis of the deposited data

Results flagged for a closer look

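In 7 of the 36 sets of 6 mice (9 genes in 4 groups) the highest or lowest mouse stood apart by more than Dixon's 95% critical value for the gap to the nearest other mouse as a share of the range on the log2(FPKM + 0.1) scale, which chance gives in about 1 of 20 sets. Sets of different genes share the same mice, so the 7 are not independent of each other. The share over all genes was not computed. The mouse that stood apart was a library of higher total FPKM in 6 of the 7. Vehicle replicate 5 was highest for Aldh1a2, at 9.383 FPKM, and for Dcn, at 5.194 FPKM. Angiotensin II replicate 5, the 1 library of higher total FPKM in its group, was highest for Ptgds, at 1051 FPKM, and for Islr, at 10.88 FPKM. Vehicle + AEC replicate 6, likewise the 1 such library of its group, was highest for Ptgds, at 1091 FPKM, and for Islr, at 13.21 FPKM. The remaining set was Dcn in vehicle + AEC, where replicate 5, of lower total FPKM, was lowest at 2.792 FPKM. On the FPKM scale, examined after the data were seen, 9 sets stood apart, 6 of them the same. Dcn in vehicle + AEC did not, and Slc6a13 in vehicle + AEC (replicate 6, 9.60 FPKM), Ogn in angiotensin II + AEC (replicate 5, 4.12 FPKM) and Fmod in angiotensin II (replicate 5, 12.4 FPKM) did, each a library of higher total FPKM.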

How the results depend on the processing

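No adjusted p of the 9 genes was under 0.05 in any alternative, neither in the 379 values of single genes under the planned settings, of which 40 had the other direction, nor in the 540 values with 1 mouse left out, of which 33 had the other direction. At an unadjusted p under 0.05 the count for angiotensin II versus vehicle was 1 in place of 0 with the replicate block (3.48% of all genes), array weights (4.6%) or the 18 libraries of lower total FPKM (3.83%), against 2.21% in the fit reported, and 0 to 2 with 1 mouse left out (1.95% to 3.09%). For vehicle + AEC versus vehicle it was 2 in place of 1 with a pseudocount of 0.01 (2.35% of all genes), no filter (1.77%), the compared groups alone (2.05%), the replicate block (3.8%), voom (2.33%), array weights (4.88%), the library set as a term (3.54%) or the 18 libraries (4.16%), against 2.41% in the fit reported, and 0 to 2 with 1 mouse left out (2.15% to 4.34%). For the interaction it was 0 to 1 with 1 mouse left out (2.26% to 4.57%). The replicate block changed no other call. The labels do not say that the replicate numbers pair the mice, and they were not taken to do so. Of 36 same-numbered pairs, 22 had a correlation of deviations over 0.1 (-0.087 to 0.530) and 11 correlated best with their own number. The highest was between replicate 6 of vehicle and of vehicle + AEC, both libraries of higher total FPKM. These values do not settle whether the mice were paired. Other directions were found as follows, on the log2 scale. With array weights, angiotensin II versus vehicle was 0.044 for Slc6a13, 0.026 for Aldh1a2 and 0.025 for Fmod, angiotensin II + AEC versus angiotensin II was -0.084 for Slc6a13, -0.0073 for Ogn and -0.044 for Ptgds, and the interaction was -0.022 for Slc6a13, -0.037 for Aldh1a2, 0.038 for Igf2 and -0.021 for Ptgds. With the library set as a term, the first was 0.034 for Slc6a13, 0.041 for Aldh1a2 and 0.0054 for Islr, the second was -0.10 for Slc6a13, -0.075 for Ptgds, -0.037 for Fmod and -0.042 for Islr, and the interaction was -0.087 for Slc6a13, -0.058 for Aldh1a2, 0.023 for Igf2, -0.073 for Ptgds and -0.034 for Islr. In the 18 libraries the first was 0.079 for Slc6a13, 0.051 for Aldh1a2, 0.0053 for Ptgds, 0.068 for Fmod and 0.013 for Islr. There the second was -0.12 for Slc6a13, -0.0069 for Ogn, -0.081 for Ptgds, -0.021 for Fmod and -0.0022 for Islr, vehicle + AEC versus vehicle was 0.014 for Ptgds and 0.0030 for Fmod, and the interaction was -0.087 for Slc6a13, -0.098 for Aldh1a2, 0.072 for Igf2, -0.096 for Ptgds and -0.024 for Fmod. Rescaling by the median ratio gave an interaction of 0.0088 for Igf2. With 1 mouse left out, angiotensin II versus vehicle ranged from -0.16 to 0.052 for Slc6a13, -0.077 to 0.096 for Aldh1a2, -0.24 to 0.0080 for Ptgds, -0.22 to 0.016 for Fmod and -0.26 to 0.032 for Islr, each upper value without vehicle replicate 5. Angiotensin II + AEC versus angiotensin II ranged from -0.11 to 0.11 for Slc6a13, -0.074 to 0.10 for Ogn, -0.15 to 0.039 for Igf2, -0.067 to 0.15 for Ptgds and -0.013 to 0.19 for Fmod. Vehicle + AEC versus vehicle ranged from -0.27 to 0.0017 for Slc6a13, -0.23 to 0.025 for Ptgds and -0.33 to 0.018 for Islr, and the interaction from -0.049 to 0.14 for Aldh1a2 and -0.095 to 0.095 for Igf2. The cause of these changes was not tested. Lum and Igf2 could not be fitted with a mean of at least 1 FPKM, and their 21 to 86 reads per mouse limit what can be detected. The labels name no batch, so that the library sets could be treated only as the total FPKM defines them.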
